A study of Mus musculus with 24 samples.

Results

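Integrins are cell surface receptors that tie the extracellular matrix to the actomyosin cytoskeleton, and 10 genes that encode their subunits are described here in the oocytes and granulosa cells of mouse ovarian follicles. The genes were taken by name from the 78298 rows of the deposited gene tables. They are the alpha subunits Itga1, Itga2, Itga3, Itga5, Itga6, Itga9 and Itgav and the beta subunits Itgb1, Itgb3 and Itgb5. All 10 were present as a single row in the table of each cell type. The rule names genes and uses no measured value, though it was drawn up with earlier results of these data known.

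The study cultured wild-type mouse follicles in alginate, a hydrogel, for 3 days in medium with serum and 50 mIU/ml follicle-stimulating hormone. Follicles that had grown past 180 µm were separated by hand into oocytes, pooled at 1 to 2 per library, and granulosa cells, pooled per library. The 6 groups held 4 libraries each: oocytes from follicles given 20 µM blebbistatin, oocytes from follicles given dextran set to a pressure of 10 kPa, oocytes from control follicles, and the granulosa cells of the same 3 culture conditions. Blebbistatin inhibits non-muscle myosin II, the motor behind actomyosin contraction, and dextran in the medium compresses the follicle osmotically. Replicates are labelled as biological; whether each stands for its own mouse or culture is not given, nor whether control medium held the solvent of blebbistatin. Every p-value therefore measures the spread between these libraries. The age of the mice was not given in the labels.

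An integrin is a pair of 1 alpha and 1 beta subunit, and the alpha subunit largely sets which matrix protein is bound. Alpha-5 with beta-1 is the classical fibronectin receptor, and alpha-v with beta-1, beta-3 or beta-5 binds proteins that carry the tripeptide Arg-Gly-Asp (RGD), such as vitronectin. Alpha-3 and alpha-6 bind laminins, alpha-1 and alpha-2 bind collagens, and alpha-9 with beta-1 binds tenascin-C, osteopontin and fibronectin carrying its EIIIA domain. In the mouse egg, alpha-6, alpha-9 and beta-1 have been studied on the plasma membrane, where sperm binding was examined, and in the follicle the granulosa cells rest on a laminin- and collagen IV-rich basal lamina.

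Expression was read as the authors' salmon estimated counts per gene, which totalled 14244103 to 18399551 in oocyte libraries and 16432298 to 22431013 in granulosa cell libraries. Levels below are CPM (counts scaled to library size) after trimmed-mean (TMM) scaling of all 24 libraries, and a level of 3 counts, the floor used for a gene listed at 0, is 0.188 to 0.239 CPM in oocyte libraries and 0.122 to 0.163 CPM in granulosa cell libraries. Such intervals and floors cover counting error only. The labelled cell types were borne out by their markers: 12 oocyte markers summed to 14877 to 25354 CPM in oocytes and 2.42 to 34.6 CPM in granulosa cells, and 12 granulosa markers to 38.4 to 3107 CPM in oocytes and 15888 to 30353 CPM in granulosa cells. Of other lists, 8 endothelial markers summed to 85.1 to 161 CPM in oocytes and 5.12 to 37.6 CPM in granulosa cells. The sums of 5 ovarian surface epithelium markers were 20.8 to 45.7 CPM in oocytes and 0 in granulosa cells. The source of these transcripts in oocyte libraries was not tested. Some libraries stood apart. Blebbistatin granulosa replicate 1 detected 14544 genes, against 18611 to 24309 in the others; blebbistatin granulosa replicates 1 and 2 carried macrophage transcripts; and control oocyte replicates 1 and 2 and blebbistatin oocyte replicate 1 carried the most granulosa cell RNA. For most test results of the subunits described that rest on them, values without them, or a range over fits that leave 1 library out, are given. The orders per length and the alpha over beta sums use all libraries. For the other integrin genes and the ligand and pathway lists, no values without them are given.

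The upstream sequences of Itga9, Itgav, Itga5 and Itgb5 are shown. Itga9 was the most abundant subunit transcript per length in oocytes. For Itga5, blebbistatin and dextran granulosa cell libraries lay above all controls, as did 2.45% and 2.67% of all genes tested. Neither Itga5 change passed the edgeR threshold. Itgav and Itgb5 transcripts ranked next after Itgb1 per length in control granulosa cells. RefSeq promoter windows (GRCm38.p6) were found for 8 of the 10 genes, not for Itga6 and Itgb3. Each sequence below is the 250 bases before the RefSeq start, 5′ to 3′ on the gene's own strand. Capitals mark GC boxes (GGGCGG or its complement CCGCCC), which are letters bound by Sp1-type factors, and E-boxes of the CACCTG kind (or CAGGTG).
Itga9, chr9:118711442-118711691, plus strand: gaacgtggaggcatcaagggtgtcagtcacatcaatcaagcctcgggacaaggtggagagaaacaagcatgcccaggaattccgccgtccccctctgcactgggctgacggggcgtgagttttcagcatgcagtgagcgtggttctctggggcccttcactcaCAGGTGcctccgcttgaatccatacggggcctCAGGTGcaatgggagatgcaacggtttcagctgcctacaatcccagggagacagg
Itgav, chr2:83724147-83724396, plus strand: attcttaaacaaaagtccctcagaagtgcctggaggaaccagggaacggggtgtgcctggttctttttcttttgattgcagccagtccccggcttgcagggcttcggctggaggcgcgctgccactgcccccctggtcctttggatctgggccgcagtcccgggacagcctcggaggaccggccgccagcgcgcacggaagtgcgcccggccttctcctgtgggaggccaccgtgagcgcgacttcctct
Itga5, chr15:103366792-103367041, minus strand: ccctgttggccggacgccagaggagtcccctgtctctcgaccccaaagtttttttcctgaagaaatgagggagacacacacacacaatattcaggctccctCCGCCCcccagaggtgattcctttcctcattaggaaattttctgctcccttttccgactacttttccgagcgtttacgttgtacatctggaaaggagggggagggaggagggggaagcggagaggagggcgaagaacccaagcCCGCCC
Itgb5, chr16:33829415-33829664, plus strand: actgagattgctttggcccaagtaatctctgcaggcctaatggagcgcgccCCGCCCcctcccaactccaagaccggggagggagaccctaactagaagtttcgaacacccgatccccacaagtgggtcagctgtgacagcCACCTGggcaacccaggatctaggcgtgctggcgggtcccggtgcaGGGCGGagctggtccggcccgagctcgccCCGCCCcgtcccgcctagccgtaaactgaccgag
The Itga9 window held 2 E-boxes and 0 GC boxes, the Itgav window neither motif, the Itga5 window 2 GC boxes, and the Itgb5 window 3 GC boxes and 1 E-box. Of all 32851 RefSeq windows of this length, 32.7% held a GC box and 17.2% held this E-box on either strand. The TEAD motif (CATTCC), the TATA box (TATAAA), the homeobox motif (TAATTG) and the AP-1 motif (TGACTCA with any base in its centre), also searched on both strands, were not found in these 4 windows. They occur in 12.6%, 12.4%, 7.17% and 6.75% of all windows. GC content was 58.4% for Itga9, 64.4% for Itgav, 55.6% for Itga5 and 65.2% for Itgb5, against a median of 52.4% over all windows. A match is a description of these letters only, and which start the cells used was not measured.

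Oocytes and granulosa cells held different integrin sets. Compared per length (CPM per kb of the GENCODE M21 principal transcript), control oocytes had most Itga9 (64.4 ± 6.03), then Itga6 (33.3 ± 4.56), Itgb1 (16.04 ± 7.40) and Itgb3 (5.38 ± 2.73), while control granulosa cells had most Itgb1 (61.6 ± 6.18), then Itgav (36.6 ± 6.42), Itgb5 (12.7 ± 1.87) and Itga6 (4.81 ± 1.12; SD, n = 4 throughout). In the oocyte order, Itga9 and Itga6 were each apart from the next gene, the ranges of Itgb1 and Itgb3 overlapped, and so did those of neighbours from Itgb5 (1.96 ± 0.945) downward. In the granulosa cell order the first 4 genes were each apart from the next, and Itga5 (2.87 ± 0.392), Itga2 (2.75 ± 1.10) and Itga9 (2.66 ± 0.310) were not apart from each other. Itga9 thus ranked 1 in control oocytes and 7 in control granulosa cells.

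**Figure D1:**
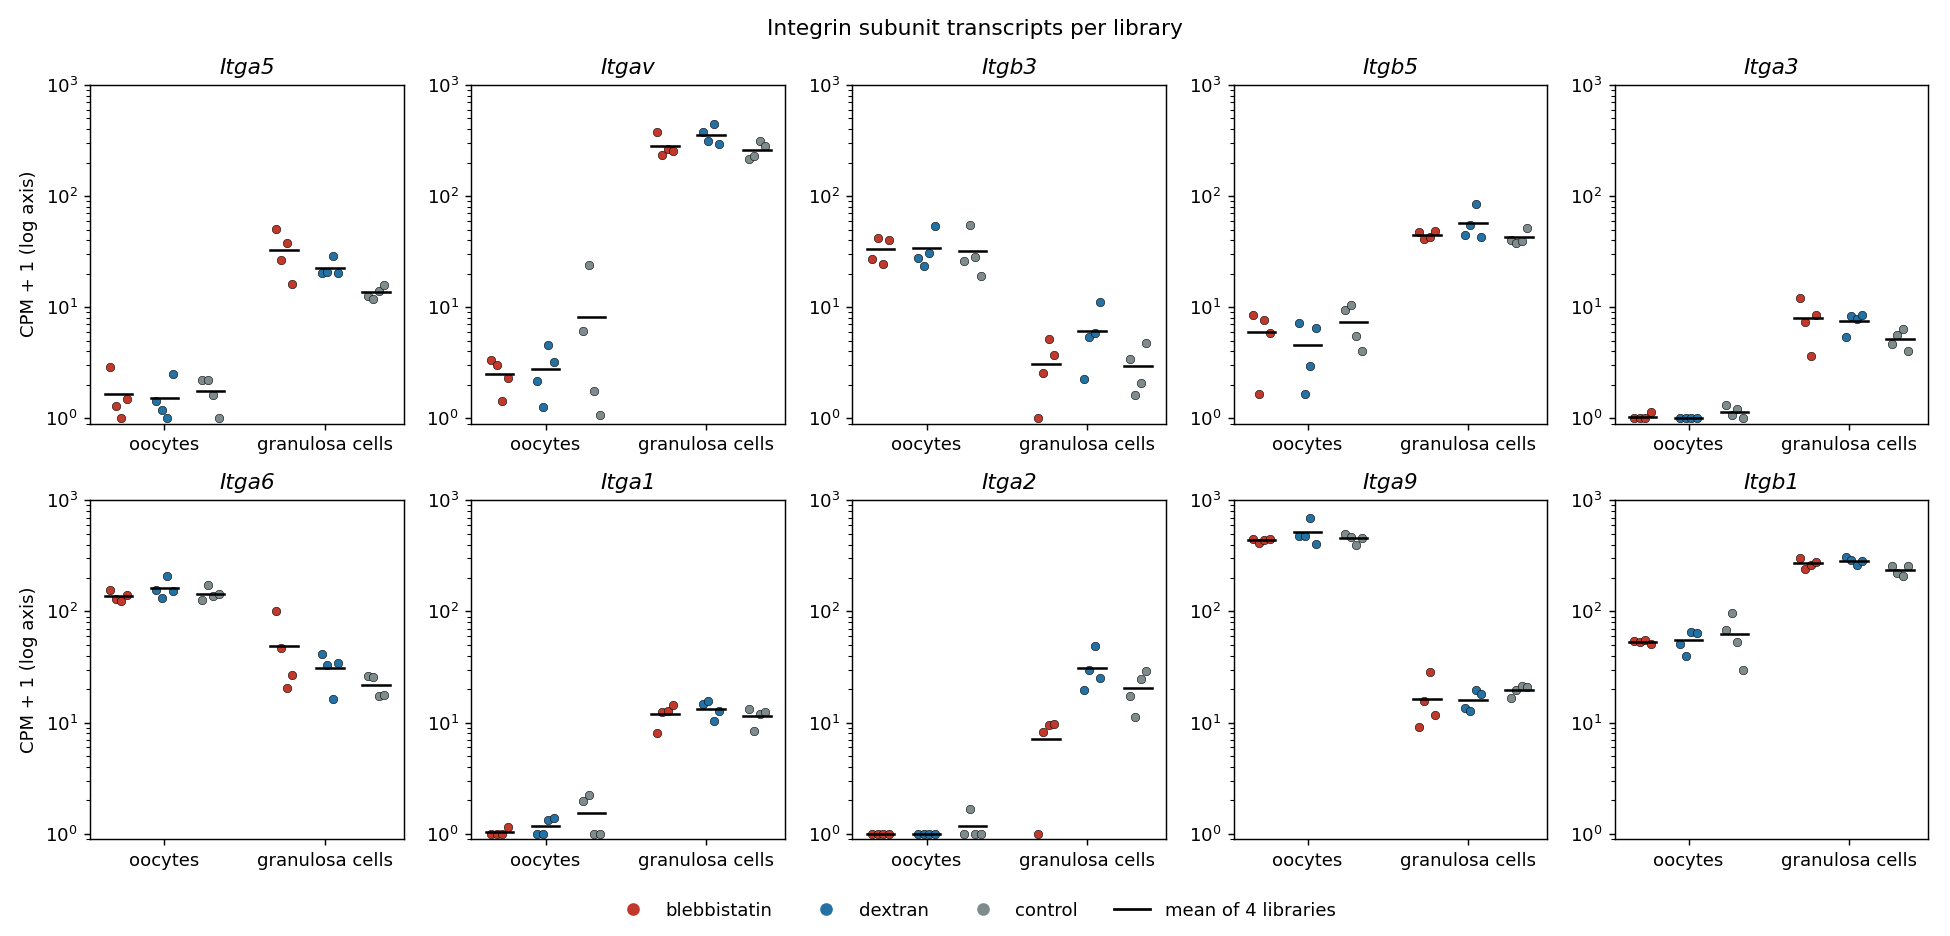
Level of each subunit transcript in every library, as CPM + 1 on a log axis. Points are libraries, bars are means of 4, oocytes stand left of granulosa cells, and colours give blebbistatin, dextran and control. Itga9, Itga6 and Itgb3 sit higher in oocytes, and the other 7 subunits sit higher in granulosa cells.

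All 10 subunits passed the test between control oocytes and control granulosa cells, 3 higher and 7 lower in oocytes (edgeR quasi-likelihood test, Benjamini-Hochberg adjusted over 20601 genes). Of all genes tested, 77.3% passed, 44.4% higher and 32.9% lower in oocytes, and the count of 10 stands beside that background. The median difference over all genes was 0.41 on the log2 scale and the median of the 10 subunits was -3.38. In each of the 10 the 4 oocyte libraries lay wholly above or wholly below the 4 granulosa cell libraries, as they did in 76.3% of all genes tested. The median over all genes shifted to 0.06 without TMM scaling, and no subunit's direction changed with that or with any other alternative run.

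Itga9 (ENSMUSG00000039115), the alpha-9 subunit, read 492, 467, 393 and 457 CPM in control oocytes, against 15.6, 18.5, 20.5 and 19.9 CPM in control granulosa cells. The groups were far apart and each was tight. Its difference was a log2 of 4.60 ± 0.29 (SE, n = 4 each; edgeR adjusted p = 1.15e-11), which is 4.19 above the median gene. Itga6 (ENSMUSG00000027111), the laminin-binding alpha-6 subunit, read 125, 171, 136 and 141 CPM in control oocytes, against 25.1, 24.7, 16.5 and 16.7 CPM in control granulosa cells. It was higher in every oocyte library, by a log2 of 2.79 ± 0.38 (edgeR adjusted p = 1.38e-06). Itgb3 (ENSMUSG00000020689), the beta-3 partner of alpha-v, read 25.1, 54.1, 27.2 and 18.1 CPM in control oocytes, against 2.42, 0.611, 1.09 and 3.74 CPM in control granulosa cells, a log2 difference of 3.99 ± 0.81 (edgeR adjusted p = 0.000175).

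Among the subunits that were lower in oocytes, Itgav (ENSMUSG00000027087), the alpha-v subunit, read 5.10, 23.0, 0.749 and 0.0627 CPM in control oocytes, against 213, 228, 309 and 283 CPM in control granulosa cells. Control oocyte libraries differed widely, and the lowest held 1 count, under the floor, while granulosa cell libraries spanned 1.45-fold. The log2 difference was -5.16 ± 0.88 (SE, n = 4 each; edgeR adjusted p = 2.31e-05), and -7.18 ± 0.79 without control oocyte replicate 2 (edgeR adjusted p = 9.10e-08). Itgb1 (ENSMUSG00000025809), the beta-1 subunit shared by most of these receptors, read 67.0, 96.3, 52.6 and 28.8 CPM in control oocytes, against 254, 221, 209 and 255 CPM in control granulosa cells. It had the smallest difference of the 10, a log2 of -1.94 ± 0.23 (edgeR adjusted p = 2.27e-07), and was present well above the floor in all libraries of both cell types. Itgb5 (ENSMUSG00000022817), the beta-5 partner of alpha-v, read 8.53, 9.54, 4.56 and 3.07 CPM in control oocytes, against 39.7, 37.2, 38.6 and 50.6 CPM in control granulosa cells, a log2 difference of -2.69 ± 0.58 (edgeR adjusted p = 0.000284).

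Itga5 (ENSMUSG00000000555), the alpha-5 subunit of the fibronectin receptor, read 1.20, 1.22, 0.613 and 0 CPM in control oocytes, against 11.6, 10.9, 13.05 and 14.8 CPM in control granulosa cells, a log2 difference of -4.06 ± 0.93 (edgeR adjusted p = 0.000546). The collagen-binding alpha-1 and alpha-2 subunits and the laminin-binding alpha-3 subunit were near or under the floor in oocytes. Itga1 (ENSMUSG00000042284) reached 1.23 CPM at most in control oocytes, against 7.49 to 12.1 CPM in control granulosa cells. Itga3 (ENSMUSG00000001507) reached 0.319 CPM in control oocytes, against 3.03 to 5.43 CPM in control granulosa cells. Itga2 (ENSMUSG00000015533) was listed at 0 in 11 of 12 oocyte libraries and at 0.677 CPM in control oocyte replicate 2, against 10.3 to 27.9 CPM in control granulosa cells. Their log2 differences were -4.28 ± 0.94, -4.82 ± 0.79 and -6.77 ± 1.36 for Itga1, Itga3 and Itga2 (edgeR adjusted p = 0.000379, 2.46e-05 and 0.000345). Itga1 shares its locus with the genes Pelo and Gm49395 on the same strand and its estimated count was not whole (tolerance 0.01) in 10 of 12 granulosa cell libraries, so its level depends on how salmon divided shared reads. By the same tolerance Itgav was not whole in 9 of the 12, and Itga6 and Itgb5 were not whole in 4 each.

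Granulosa cell RNA reached some oocyte libraries, and Itgav was highest in the 2 libraries with the most Inha. Inha, which encodes the inhibin alpha subunit made by granulosa cells, stood at 12.5%, 2.22% and 1.55% of its control granulosa cell mean in control oocyte replicates 2 and 1 and blebbistatin oocyte replicate 1, and at 0.377% or less in the other 9. Itgav stood at 8.90%, 1.97% and 0.910% of its control granulosa cell mean in the same 3 libraries. In dextran oocyte replicate 3 Itgav was at 1.37% while Inha was at 0.00553%. Dextran oocyte replicate 4 and blebbistatin oocyte replicate 2 held Itgav at 0.854% and 0.787%, with Inha at 0.292% and 0.377%. Over all 12 granulosa markers, the median share in an oocyte library ran from 0.0214% to 14.2%, with the highest in control oocyte replicate 2. Itgb1 stood at 41.0% and 28.5% of its granulosa cell mean in control oocyte replicates 2 and 1, the 2 highest shares and the 2 libraries with the most Inha. It stood at 12.3% to 27.3% in the other 10, with 27.3% in dextran oocyte replicate 3, where Inha was lowest. Without control oocyte replicates 1 and 2 and blebbistatin oocyte replicate 1, all 10 subunits still passed between the cell types, in the same directions. The log2 difference was then -9.33 ± 0.85 for Itgav, -2.53 ± 0.23 for Itgb1, -3.45 ± 0.77 for Itgb5 and -5.36 ± 1.22 for Itga5. For Itga1 and Itga2 it was -10.60 ± 1.55 and -11.48 ± 2.40, where the control oocytes left are listed at 0 and the fitted value depends on the prior count. Without control oocyte replicate 2 alone it was -5.19 ± 1.08 for Itga1 and -11.48 ± 2.01 for Itga2, and without control oocyte replicate 1 alone it was -5.46 ± 0.91 for Itga3. The part of granulosa cell RNA in these differences was not tested.

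**Figure D2:**
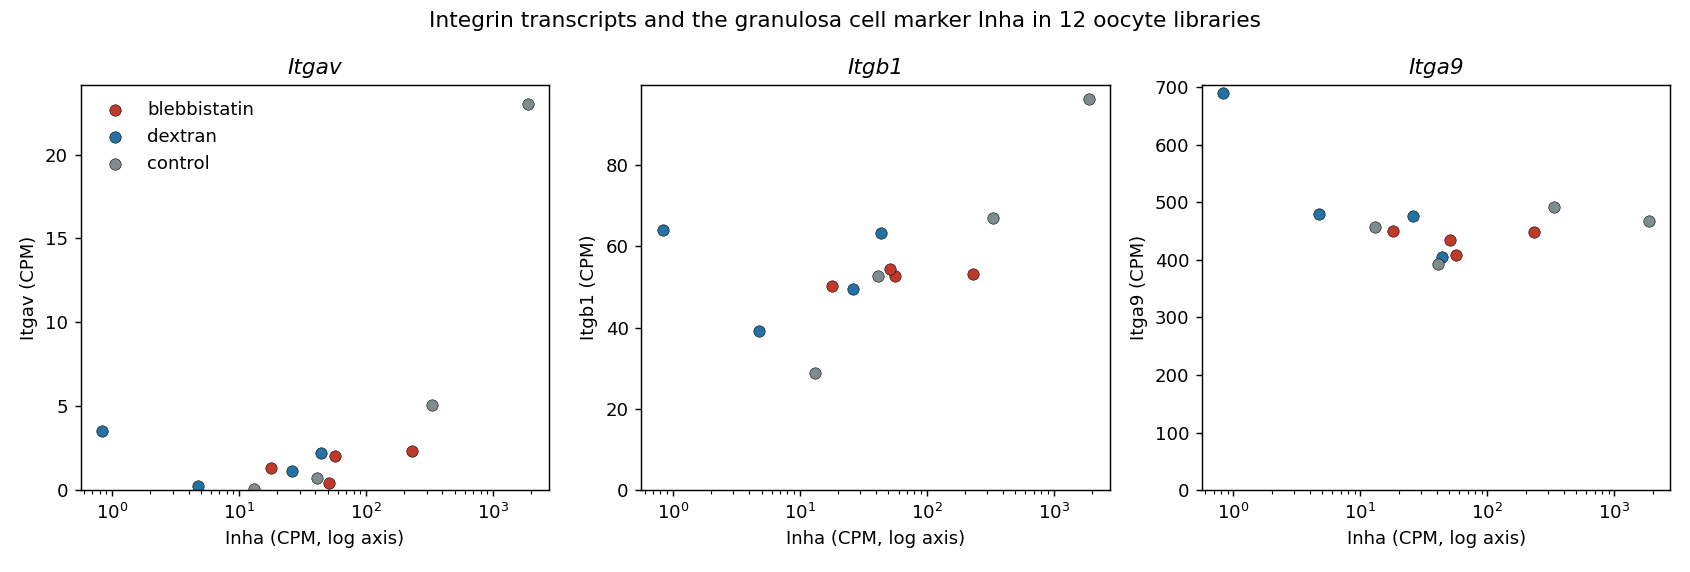
Itgav, Itgb1 and Itga9 (CPM) against the granulosa cell marker Inha (CPM, log axis) in the 12 oocyte libraries, coloured by culture condition. The library with the most Inha, control replicate 2, also has the highest Itgav (23.0 CPM) and Itgb1 (96.3 CPM), while Itga9 is 467 CPM there and highest (689 CPM) where Inha is lowest.

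Summed per length, the 7 alpha transcripts exceeded the 3 beta transcripts in oocytes and were fewer than them in granulosa cells. The alpha sum over the beta sum was 4.09, 2.93, 4.42 and 8.42 in control oocytes, against 0.569, 0.668, 0.883 and 0.673 in control granulosa cells. All 12 oocyte libraries lay between 2.93 and 8.42, and all 12 granulosa cell libraries between 0.569 and 0.989. With the other 16 integrin genes added, the ratio averaged 4.74 ± 2.14 in control oocytes and 0.717 ± 0.130 in control granulosa cells (SD, n = 4 each). Both sums rest on 1 annotated transcript length per gene, and these are levels of RNA, not of receptor.

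**Figure D3:**
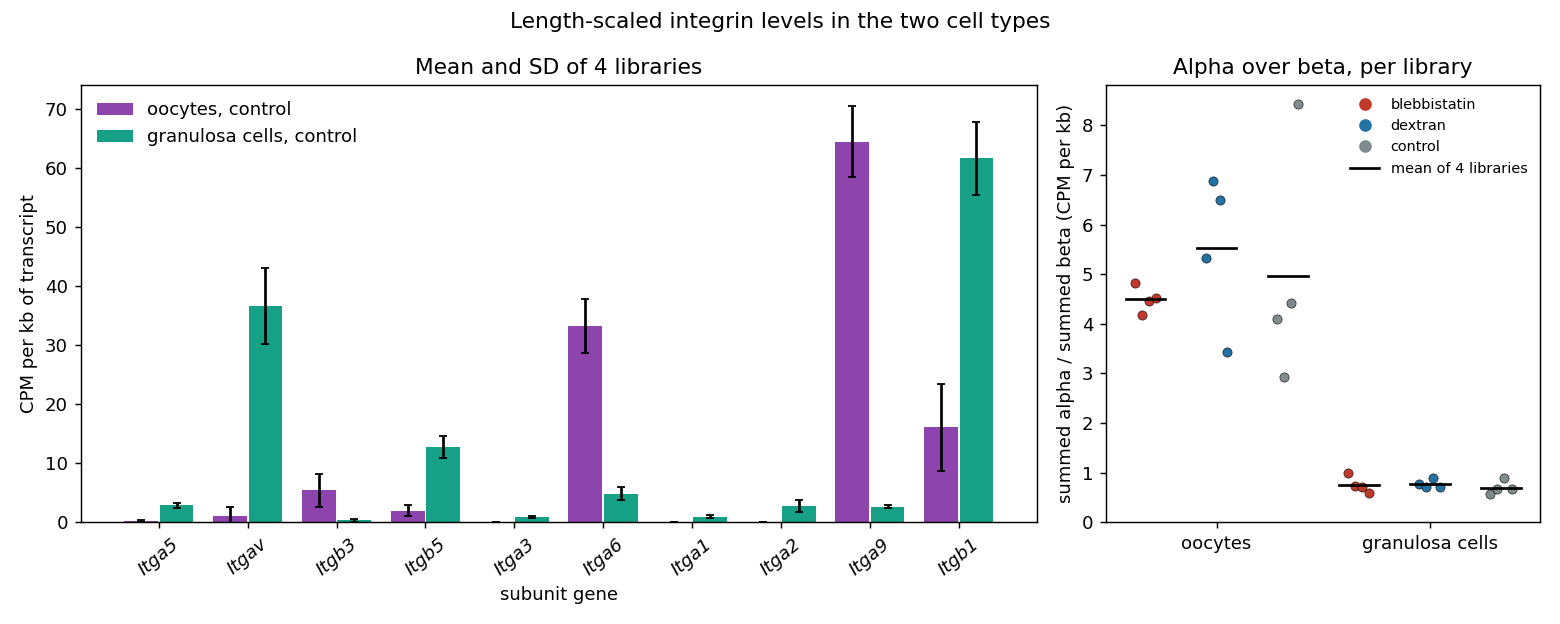
Left, length-scaled level (CPM per kb) of each subunit in control oocytes and control granulosa cells, as mean and SD of 4 libraries. Right, summed alpha over summed beta level in every library; oocyte libraries lie at 2.93 to 8.42 and granulosa cell libraries at 0.569 to 0.989.

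Blebbistatin changed none of the 10 subunits past the threshold in granulosa cells by edgeR (0 of 10, against 0.00651% of the 15370 genes tested), with 2 of the 10 at an unadjusted p under 0.05, as were 10.4% of all genes tested. DESeq2 called 1 of the 10, Itga5, and 2.45% of all genes, and limma voom called 0 of the 10. Itga5 read 49.1, 25.6, 36.6 and 15.3 CPM in blebbistatin granulosa cells, against 11.6, 10.9, 13.05 and 14.8 CPM in control granulosa cells. All 4 blebbistatin libraries lay above all 4 controls, though replicate 4 only just. The log2 change was 1.32 ± 0.31 (SE, n = 4 each; edgeR adjusted p = 0.172; DESeq2 adjusted p = 0.00479). Over all alternatives Itga5 kept its sign, with log2 changes from 1.05 to 1.55 and adjusted p from 0.00479 to 0.456.

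Itga6 read 100.4, 46.3, 19.6 and 25.8 CPM in blebbistatin granulosa cells, against 25.1, 24.7, 16.5 and 16.7 CPM in control granulosa cells. The groups overlapped, and the change of 1.20 ± 0.46 on the log2 scale (edgeR adjusted p = 0.387) rested on blebbistatin replicates 1 and 2: it was 0.57 ± 0.34 without replicate 1 and 0.13 ± 0.34 without both. Itga2, by contrast, read 0, 7.26, 8.58 and 8.81 CPM in blebbistatin granulosa cells, against 16.4, 10.3, 23.6 and 27.9 CPM in control granulosa cells. All blebbistatin libraries lay below all controls; the log2 change was -1.67 ± 0.86 (edgeR adjusted p = 0.526), and without replicate 1, where Itga2 was listed at 0, it was -1.23 ± 0.36 (adjusted p = 0.232). Itga5 and Itga2 were thus the 2 subunits of 10 whose blebbistatin and control libraries did not overlap, 1 in each direction, where 2.45% of all genes tested lay wholly higher and 4.16% wholly lower.

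The beta subunits and Itgav differed less. Itgb1 read 301, 239, 259 and 277 CPM in blebbistatin granulosa cells, against 254, 221, 209 and 255 CPM in control granulosa cells, a log2 change of 0.19 ± 0.10 (SE, n = 4 each; edgeR adjusted p = 0.534). Itgav read 378, 234, 263 and 252 CPM in blebbistatin granulosa cells, against 213, 228, 309 and 283 CPM in controls, a log2 change of 0.12 ± 0.18. Itgb5 changed by a log2 of 0.07 ± 0.21, Itgb3 by 0.10 ± 1.05, Itga1 by 0.04 ± 0.28, Itga3 by 0.71 ± 0.44 and Itga9 by -0.30 ± 0.34, and for each the groups overlapped. The Itga3 change ranged from 0.40 to 0.98 over the fits that leave 1 library out. The median over the 10 was 0.11, against -0.05 over all genes tested.

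Markers of other cells moved with the blebbistatin granulosa group. In a list of 15 stromal and smooth muscle markers, the summed level was 1494, 377, 1041 and 401 CPM in blebbistatin granulosa cells, against 362, 28.5, 72.2 and 334 CPM in control granulosa cells, with no marker at 0 throughout either group. Every blebbistatin library was above every control. Within the blebbistatin group replicates 1 and 3 were highest in both Itga5 and the stromal sum. Replicates 2 and 4 stood in opposite order, with sums of 377 and 401 CPM and Itga5 at 25.6 and 15.3 CPM. Control replicates 1 and 4, with sums of 362 and 334 CPM, held Itga5 at 11.6 and 14.8 CPM. In a list of 8 macrophage and leukocyte markers, the sum was 514, 780, 4.18 and 3.58 CPM in blebbistatin granulosa cells, against 3.18, 4.42, 3.68 and 13.5 CPM in control granulosa cells. The 12 granulosa markers summed to 15888 to 20768 CPM in blebbistatin granulosa cells and 23941 to 30353 CPM in controls. The part of these in the Itga5 difference was not tested; without blebbistatin replicates 1 and 2, the 2 libraries with macrophage transcripts, its log2 change was 1.05 ± 0.30 (edgeR adjusted p = 0.136). In pooled cells, fewer cells of a type and less RNA per cell cannot be told apart.

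**Figure D4:**
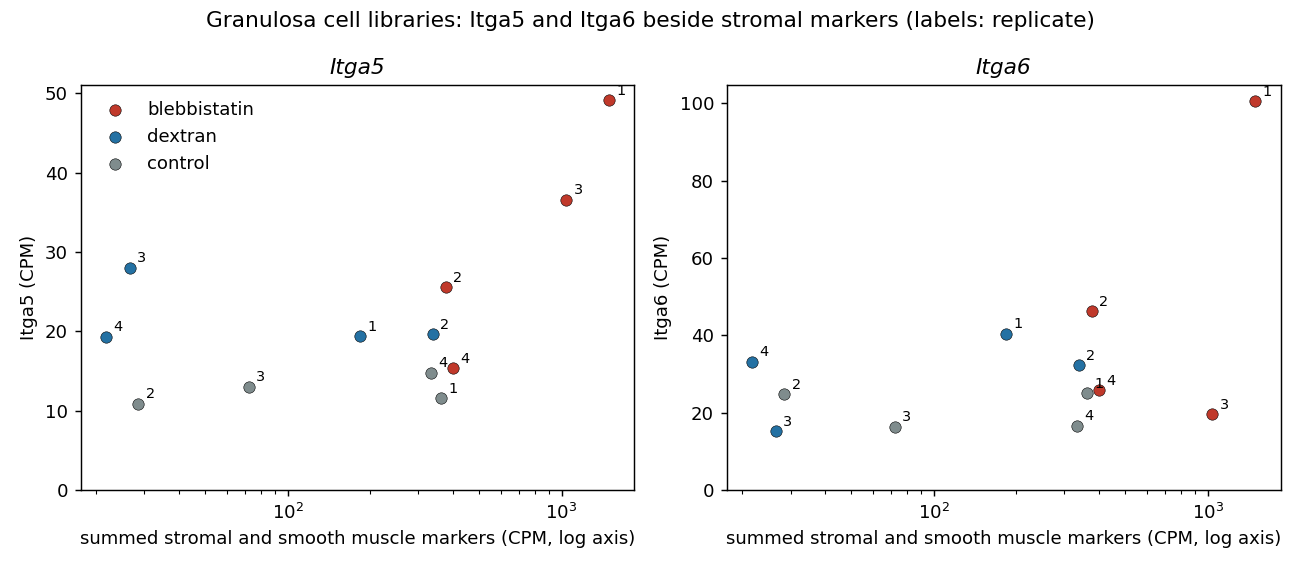
Itga5 and Itga6 (CPM) against the summed level of 15 stromal and smooth muscle markers (CPM, log axis) in the 12 granulosa cell libraries; numbers are replicates and colours the culture condition. Itga5 is highest (49.1 and 36.6 CPM) in the 2 blebbistatin libraries with the highest sums (1494 and 1041 CPM), while dextran replicate 3 has 28.02 CPM of Itga5 at a sum of 26.5 CPM.

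Dextran likewise changed none of the 10 past the threshold in granulosa cells (0 of 10 by edgeR, DESeq2 and limma voom). Of all 15370 genes tested, edgeR called 0%, DESeq2 called 42 and limma voom called 0. Among the 10 subunits, 3 had an unadjusted p under 0.05, as had 3.4% of all genes tested. Of the 10 fitted changes 9 were positive, with a median of 0.52, against -0.0037 over all genes tested. Itga5 read 19.4, 19.7, 28.02 and 19.3 CPM in dextran granulosa cells, against 11.6, 10.9, 13.05 and 14.8 CPM in control granulosa cells. The groups did not overlap, and the log2 change was 0.79 ± 0.30 (SE, n = 4 each; edgeR adjusted p = 0.9999). Itgb1 read 310.2, 287, 259 and 281 CPM in dextran granulosa cells, against 254, 221, 209 and 255 CPM in control granulosa cells. These groups did not overlap either, with a log2 change of 0.29 ± 0.10 (edgeR adjusted p = 0.9999). Itga5 and Itgb1 were the 2 of 10 that lay wholly higher, as did 2.67% of all genes tested.

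Itgav read 376, 314, 442 and 296 CPM in dextran granulosa cells, against 213, 228, 309 and 283 CPM in control granulosa cells, a log2 change of 0.48 ± 0.18 (SE, n = 4 each; edgeR adjusted p = 0.9999). The groups overlapped at 1 control library. Itgb5 read 43.6, 54.3, 84.2 and 41.4 CPM in dextran granulosa cells, against 39.7, 37.2, 38.6 and 50.6 CPM in controls, a log2 change of 0.44 ± 0.21. Dextran replicate 3 held the highest value of its group for Itgav, Itgb5, Itga5 (28.02 CPM) and Itga2 (48.3 CPM). Without it, the changes of Itgav, Itgb5, Itga5 and Itga2 were 0.36 ± 0.18, 0.17 ± 0.16, 0.64 ± 0.32 and 0.30 ± 0.94. The remaining subunits overlapped between the groups, with log2 changes of 1.41 ± 1.07 for Itgb3, 0.64 ± 0.44 for Itga3, 0.63 ± 0.83 for Itga2, 0.56 ± 0.46 for Itga6, 0.24 ± 0.28 for Itga1 and -0.31 ± 0.34 for Itga9. The stromal marker sum ran from 21.7 to 339 CPM in dextran granulosa cells and from 28.5 to 362 CPM in control granulosa cells, and the granulosa marker sum from 21114 to 27050 CPM in dextran granulosa cells and 23941 to 30353 CPM in controls.

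Set directly against dextran, blebbistatin granulosa cells differed in none of the 10 subunits past the threshold (0 of 10 by edgeR, DESeq2 and limma voom). Of all 15370 genes tested, edgeR called 0%, DESeq2 called 214 and limma voom called 0. Among the 10 subunits, 1 had an unadjusted p under 0.05, as had 8.84% of all genes tested. That subunit was Itga2, the alpha-2 collagen receptor, at 0, 7.26, 8.58 and 8.81 CPM in blebbistatin granulosa cells, against 18.6, 28.6, 48.3 and 24.3 CPM in dextran granulosa cells. All blebbistatin libraries lay below all dextran libraries, as in 3.78% of all genes tested, and the log2 difference was -2.29 ± 0.87 (SE, n = 4 each; edgeR adjusted p = 0.486). Over the fits that leave 1 library out, it ranged from -2.52 to -1.86. Both comparisons with control share the same 4 control libraries, whereas this one does not use them. Itgav and Itgb5 differed by -0.36 ± 0.18 and -0.37 ± 0.21 on the log2 scale, Itga5 by 0.53 ± 0.30 and Itga6 by 0.65 ± 0.46, all with overlapping groups. Without blebbistatin replicates 1 and 2 the Itga5 and Itga6 differences were 0.27 ± 0.31 and -0.42 ± 0.35.

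**Figure D5:**
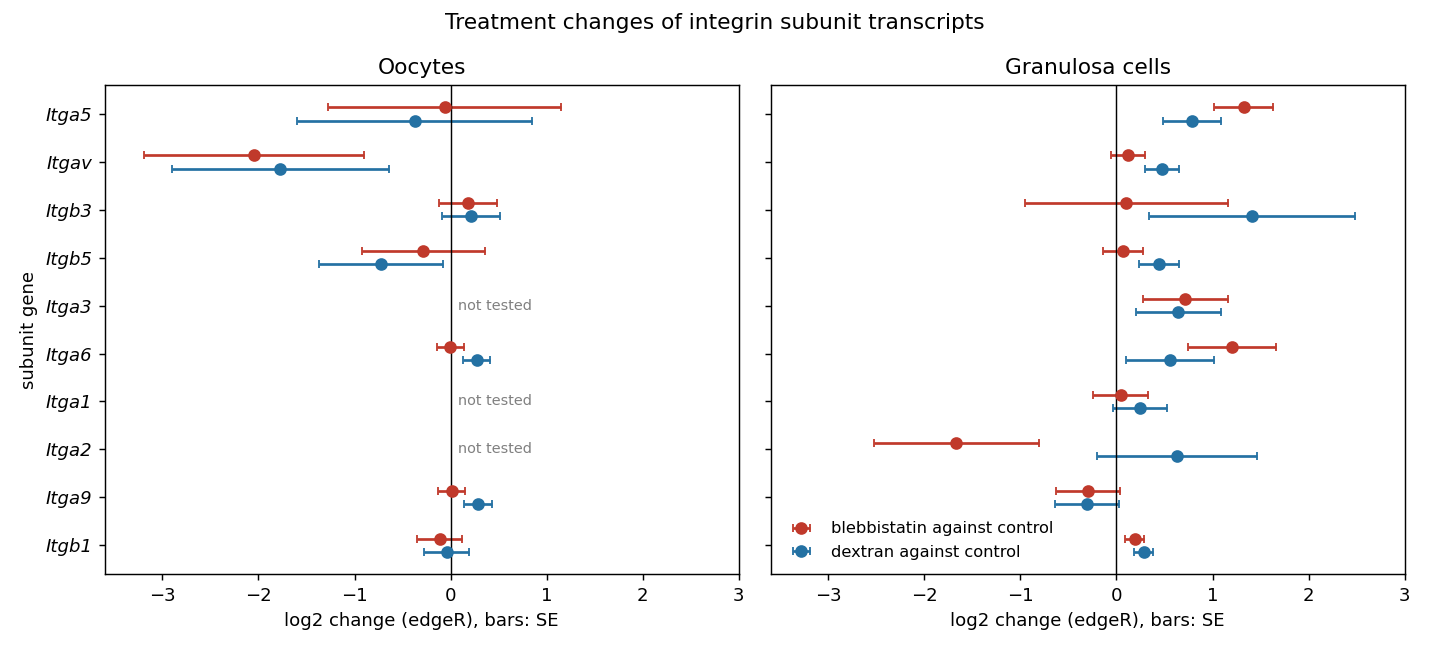
Fitted log2 change of each subunit for blebbistatin against control and dextran against control, in oocytes and in granulosa cells; bars are standard errors from edgeR. In granulosa cells Itga5 is 1.32 with blebbistatin and 0.79 with dextran and Itga2 is -1.67 with blebbistatin; none passed the adjusted threshold in edgeR, and Itga1, Itga2 and Itga3 were not tested in oocytes.

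Oocytes showed no subunit past the threshold under either treatment. Of the 10 genes 7 passed the filter on low counts in oocytes, and Itga1, Itga2 and Itga3 did not. By edgeR, DESeq2 and limma voom 0 of 7 changed with blebbistatin and 0 of 7 with dextran. Of all 16749 genes tested, edgeR called 0% in each, and DESeq2 called 14 with blebbistatin and 4 with dextran. An unadjusted p under 0.05 was seen in 0 of 7, where 4.1% (blebbistatin) and 5.31% (dextran) of all genes tested had one. No subunit's groups were apart, where 2.58% and 2.39% of all genes were. Itga9, the most abundant per length, read 449, 408, 435 and 450.5 CPM in blebbistatin oocytes and 475, 480.3, 689 and 404 CPM in dextran oocytes, against 492, 467, 393 and 457 CPM in control oocytes. Its levels spread by 4.46% (coefficient of variation) in blebbistatin, 23.96% in dextran and 9.36% in control oocytes. The log2 change was 0.01 ± 0.14 with blebbistatin and 0.29 ± 0.14 with dextran (SE, n = 4 each; edgeR adjusted p = 0.9999 and 0.935).

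Itga6 read 154, 127, 124 and 141 CPM in blebbistatin oocytes and 154, 131, 206 and 151 CPM in dextran oocytes, against 125, 171, 136 and 141 CPM in control oocytes. The 3 groups overlapped, with log2 changes of -0.0035 ± 0.14 for blebbistatin and 0.27 ± 0.14 for dextran. Dextran replicate 3, the library with the least granulosa cell RNA, held the highest Itga9 and Itga6 of the 12. Over the fits that leave 1 library out, the dextran changes ranged from 0.11 to 0.41 for Itga9 and from 0.12 to 0.35 for Itga6. Itgb1 read 53.2, 52.6, 54.4 and 50.3 CPM in blebbistatin oocytes and 49.5, 39.1, 64.1 and 63.2 CPM in dextran oocytes, against 67.0, 96.3, 52.6 and 28.8 CPM in control oocytes. It was tight in blebbistatin oocytes and spread 3.34-fold in control oocytes, with log2 changes of -0.11 ± 0.23 for blebbistatin and -0.04 ± 0.23 for dextran. Without control replicates 1 and 2 and blebbistatin replicate 1, these were 0.36 and 0.42.

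Itgb3 read 26.4, 41.3, 23.6 and 39.6 CPM in blebbistatin oocytes and 26.8, 22.7, 29.6 and 52.3 CPM in dextran oocytes, against 25.1, 54.1, 27.2 and 18.1 CPM in control oocytes, with log2 changes of 0.18 ± 0.30 and 0.21 ± 0.30. Itgav read 2.35, 2.04, 0.428 and 1.30 CPM in blebbistatin oocytes and 1.16, 0.267, 3.55 and 2.21 CPM in dextran oocytes, against 5.10, 23.0, 0.749 and 0.0627 CPM in control oocytes. Its log2 changes of -2.05 ± 1.14 with blebbistatin and -1.77 ± 1.13 with dextran (edgeR adjusted p = 0.9999 and 0.967) changed sign without the libraries that held the most granulosa cell RNA: without control replicates 1 and 2 and blebbistatin replicate 1 they were 1.64 ± 1.14 and 2.17 ± 1.12. Itgb5 and Itga5 had log2 changes of -0.29 ± 0.64 and -0.06 ± 1.21 for blebbistatin and -0.72 ± 0.65 and -0.37 ± 1.22 for dextran. Blebbistatin oocytes set against dextran oocytes gave 0 of 7 past the threshold in the 3 tools, against 0% of all genes by edgeR, 0 of 7 at an unadjusted p under 0.05, against 4.07% of all genes, and 0 of 7 with groups apart, against 2.78% of all genes.

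An interaction term, fitted to the 24 libraries together, tested whether the response to each treatment differed between oocytes and granulosa cells. None of the 10 passed for blebbistatin, against 0.0485% of the 20601 genes tested, or for dextran, against 0%. Of the 10, 4 and 2 had an unadjusted p under 0.05, as did 11.3% and 9.28% of all genes. DESeq2 and limma voom also called 0 of the 10. Over all genes DESeq2 called 382 for blebbistatin and 210 for dextran, and limma voom called 18 and 0. For Itga5 the blebbistatin change in oocytes minus that in granulosa cells was -1.48 ± 1.22 on the log2 scale (edgeR adjusted p = 0.738) and for Itga6 -1.28 ± 0.51 (adjusted p = 0.360). Without blebbistatin granulosa replicates 1 and 2 these were -0.92 ± 1.24 and 0.067 ± 0.37, and without replicate 1 alone that of Itga6 was -0.64 ± 0.39. Some interactions changed sign without control oocyte replicates 1 and 2 and blebbistatin oocyte replicate 1, the libraries with the most granulosa cell RNA. For blebbistatin these were Itga1 (2.97), Itga2 (1.67), Itgav (1.53), Itgb3 (0.51), Itgb1 (0.18) and Itgb5 (0.027). For dextran they were Itga1 (4.52), Itgav (1.71) and Itgb1 (0.13). The part of granulosa cell RNA in the interactions was not tested. Itga3, under the floor in most oocyte libraries, had the smallest adjusted p of the dextran interaction (edgeR adjusted p = 0.285). The Itga5 change of granulosa cells is therefore not shown to be absent from oocytes, where the gene read at most 1.88 CPM.

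Of 16 other integrin genes, 9 reached a mean of 1 CPM in at least 1 group, 5 in oocytes and 7 in granulosa cells. Itga8, an alpha subunit that pairs with beta-1 and binds RGD, read 14.03, 27.3, 12.3 and 13.5 CPM in control oocytes, against 1.44, 0.896, 0.0842 and 6.99 CPM in control granulosa cells (edgeR log2 2.84 ± 1.03, adjusted p = 0.0170). Itga10, a collagen-binding alpha subunit, read 1.94 to 6.09 CPM in control oocytes and 0.126 CPM at most in control granulosa cells (log2 5.75 ± 0.75, adjusted p = 1.63e-06). Itga11, another collagen-binding alpha subunit, went the other way, at 0.879 CPM at most in control oocytes and 2.38 to 6.54 CPM in control granulosa cells (log2 -4.45 ± 1.17, adjusted p = 0.00293).

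Itgb8, a beta partner of alpha-v, was listed at 0 in all 12 oocyte libraries and read 1.06 to 4.498 CPM in control granulosa cells (edgeR adjusted p = 0.00280). Itgb2, the beta-2 subunit of leukocyte integrins, read 2.07, 5.01, 3.88 and 2.95 CPM in control oocytes and was listed at 0 in every control granulosa cell library (adjusted p = 0.00141). In granulosa cells it was seen only in blebbistatin replicates 1 and 2, at 15.6 and 15.7 CPM, the 2 libraries with macrophage transcripts, where Lyz2, a lysozyme of myeloid cells, read 341 and 588 CPM. Itga7 at 25.3 CPM and Itga4 at 9.82 CPM were also highest in blebbistatin granulosa replicate 1. Itgb4, the beta partner of alpha-6 in hemidesmosomes, read 1.504 to 3.83 CPM in control oocytes and 0.552 to 3.09 CPM in control granulosa cells without passing the test (adjusted p = 0.325), nor did Itgae (adjusted p = 0.146). Among the 16, 10 were tested between the cell types, and 4 were higher and 3 lower in oocytes, where 77.3% of all genes passed. No gene of this list passed in any treatment comparison. In granulosa cells (blebbistatin, dextran, and the one against the other) 1, 1 and 0 of 6 had an unadjusted p under 0.05, as did 10.4%, 3.4% and 8.84% of all genes tested. In the same order of oocyte comparisons 0 of 5 did in each, against 4.1%, 5.31% and 4.07% of all genes tested.

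Ligands of these receptors passed between the cell types in both directions, and each count below stands beside 44.4% of all genes higher and 32.9% lower in oocytes. Of 11 laminin chains 10 were tested between control oocytes and control granulosa cells, and 5 were higher and 4 lower in oocytes. Lamb1 averaged 772 ± 114 CPM in control oocytes and 38.4 ± 22.4 CPM in control granulosa cells (SD, n = 4 each; edgeR log2 4.33 ± 0.41, adjusted p = 6.46e-09) and Lama5 averaged 16.4 ± 3.61 CPM in control oocytes and 0.190 ± 0.221 CPM in control granulosa cells. Lama1, Lamc3 and Lamb2 were lower in oocytes; Lama1 averaged 8.99 ± 4.31 CPM in control oocytes and 83.7 ± 16.7 CPM in control granulosa cells. Among 9 collagen chains 1 was higher and 7 lower in oocytes. Col4a3 averaged 33.4 ± 12.6 CPM in control oocytes and 3.14 ± 1.02 CPM in control granulosa cells, while Col4a4, Col4a5 and Col3a1 were lower, Col3a1 being listed at 0 in all oocyte libraries. In the list of 20 fibronectin and other RGD or alpha-9 ligands, 14 were tested, and 3 were higher and 9 lower in oocytes. Fn1, fibronectin, was higher at 24.7 ± 3.24 CPM in control oocytes, against 4.93 ± 6.04 CPM in control granulosa cells (adjusted p = 0.0485). Thbs1, thrombospondin-1, averaged 10.7 ± 17.8 CPM in control oocytes and 655 ± 283 CPM in control granulosa cells, and Mfge8 and Ccn1 were lower as well.

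On the cytoplasmic side, 14 of 18 activators and inhibitors were tested, and 5 were higher and 7 lower in oocytes, where 77.3% of all genes passed, as for the counts that follow. Itgb1bp1, which binds the beta-1 tail and opposes talin, averaged 129.9 ± 19.9 CPM in control oocytes and 20.6 ± 2.40 CPM in control granulosa cells (edgeR log2 2.66 ± 0.14, adjusted p = 6.10e-13), and Tln1, talin-1, 12.3 ± 2.32 and 46.9 ± 10.1 CPM. Rapgef1 was also higher in oocytes, and Flna, filamin A, and Dab2 were lower. All 24 adaptors and kinases were tested, with 6 higher and 12 lower. Ilk, the integrin-linked kinase, averaged 17.5 ± 9.11 CPM in control oocytes and 138 ± 4.84 CPM in control granulosa cells, and Zyx, zyxin, and Lims1 were also lower, while Fyn, Bcar1 and Git2 were higher. Of 17 membrane partners and trafficking genes 4 were higher and 8 lower. Cd9, a tetraspanin needed for sperm and egg fusion in the mouse, averaged 209.7 ± 33.3 CPM in control oocytes and 29.7 ± 3.99 CPM in control granulosa cells, and Rab11a and Rab21 were higher, whereas Cd81, Cd47 and Sdc4 were lower.

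None of these 6 lists had a gene past the threshold in any treatment comparison or interaction by edgeR. In blebbistatin granulosa cells the median log2 change was 1.78 over 11 fibronectin and RGD ligands and 2.21 over 9 collagen chains, against -0.05 over all genes, with 6 of the 11 and 4 of the 9 at an unadjusted p under 0.05, as were 10.4% of all genes. The genes with the smallest p in those lists were Thbs2 (28.5 ± 17.2 CPM in blebbistatin and 1.29 ± 1.13 CPM in control granulosa cells; log2 4.46 ± 0.85, adjusted p = 0.102) and Col4a4 (55.6 ± 48.2 and 4.94 ± 2.63 CPM; log2 3.49 ± 0.61, adjusted p = 0.102). Stromal cells also express fibrillar collagens and matricellular ligands. Col3a1 stands in both the collagen and the stromal list, whose sum was higher in the same libraries. Values of these lists without the blebbistatin libraries that carried macrophage transcripts are not given. The other lists had medians of -0.08 (laminins), 0.18 (activators and inhibitors), 0.02 (adaptors and kinases) and 0.18 (membrane partners), with 1, 0, 8 and 3 genes at an unadjusted p under 0.05. Their genes of smallest p were Lamb2 (log2 -0.77 ± 0.26), Krit1 (0.51 ± 0.26), Tns3 (1.35 ± 0.36) and Cd63 (0.49 ± 0.10).

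Cd63, a tetraspanin of late endosomes and the cell surface that associates with beta-1 integrins, averaged 313 ± 18.9 CPM in blebbistatin and 343 ± 49.9 CPM in dextran granulosa cells, against 222 ± 5.27 CPM in control granulosa cells. Both treated groups lay wholly above control, as did 2.45% (blebbistatin) and 2.67% (dextran) of all genes tested. The log2 changes were 0.49 ± 0.10 and 0.64 ± 0.10 (SE, n = 4 each; edgeR adjusted p = 0.110 and 0.174). Blebbistatin replicates 1 and 2 carried macrophage transcripts, and no Cd63 value without them is given. With dextran the list medians in granulosa cells ran from -0.09 (collagens) to 0.49 (fibronectin and RGD ligands), and 1, 0, 1, 0, 2 and 3 genes of the ligand, laminin, collagen, activator, adaptor and partner lists had an unadjusted p under 0.05, as did 3.4% of all genes. The genes of smallest p there were Spp1 (log2 4.42 ± 1.83), Lama5 (2.09 ± 1.51), Col4a3 (1.35 ± 0.59), Flna (0.45 ± 0.21), Vcl (0.95 ± 0.39) and Cd63.

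In oocytes some of the genes of smallest p were transcripts that granulosa cells hold in excess. With blebbistatin the genes were Mfge8 (log2 -3.00 ± 1.10) and Sdc4 (-2.34 ± 0.67), beside Lama2, Col4a3, Rapgef1 and Arhgef7 with changes between -0.26 and 0.29; with dextran they were Mfge8, Flna (-2.12 ± 0.48), Tgfb1i1 and Lgals1 (-2.80 ± 0.87), beside Lama4 and Col4a3. Sdc4 averaged 1.08 ± 0.290 CPM in blebbistatin oocytes and 6.19 ± 6.95 CPM in control oocytes, against 125 ± 24.8 CPM in control granulosa cells, and the control oocyte libraries include those with the most Inha; the part of that RNA in these changes was not tested.

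The genes whose levels followed a subunit most closely over the 12 libraries of a cell type are given as a description, from log2(CPM + 1) of genes averaging 5 CPM or more and with no test. For Itga5 in granulosa cells these were Msn (Pearson r = 0.93), Adam15 (0.91) and Mtmr2 (0.90), of 10313 genes compared. For Itgb1 in granulosa cells they were Atp6v0c (0.87), Gm35533 (0.86) and Uap1l1 (0.85). In oocytes they were Lars1 (0.92), Anp32e (0.91) and Acaa1a (0.91) for Itgav and Slc25a36 (0.92), Idh1 (0.91) and Api5 (0.90) for Itgb1. Itgav itself averaged under 5 CPM in oocytes, with 23.0 CPM in control replicate 2. The points share their libraries' depth and, in oocytes, the amount of granulosa cell RNA.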

How the data were processed

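RNA-seq of 24 libraries (6 groups of 4) was deposited as 1 gene table per cell type. The values are salmon estimated counts per gene, per the labels, and the submitters' processing notes name GRCm39 as the genome build. Strandedness, annotation release and aligner settings were not given in the sources used here. Estimated counts were rounded to whole numbers. Treatment comparisons were fitted within each cell type over its 12 libraries, and cell type comparisons and interactions over all 24, with edgeR 4.0.16 in R 4.3.3 (filterByExpr, TMM scaling, robust quasi-likelihood test, Benjamini-Hochberg adjustment over all genes tested, threshold 0.05). Standard errors are those implied by the log2 change and its F statistic.

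The filter left 15370 genes in granulosa cells, 16749 in oocytes and 20601 over all libraries; a gene with few counts in every group is dropped, so 3 subunits have no oocyte test. The members and lists were chosen with earlier results of these data known. Named genes were all 10 subunits, other integrin genes averaging 1 CPM or more in a group, and, per pathway list, up to 3 genes per direction past the threshold with a mean of at least 5 CPM in a group, or else the gene of smallest p. Some genes that this rule names are not reported here. No 2 replicates were alike within sampling noise (chi-square per gene of 12.4 or more). Alternatives were other scalings, no filter, DESeq2 1.42.0, limma 3.58.1 voom, a replicate block, pairwise fits and leaving libraries out. Transcript lengths and chromosomes came from GENCODE M21 (GRCm38) and were matched by gene name; no coordinates were carried between builds. Reads were amplified over PCR cycles without molecular identifiers named in the labels.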

Additional observations from a re-analysis of the deposited data

Results flagged for a closer look

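Of 60 sets of 4 libraries (10 subunits in 6 groups), 4 held a value far from the other 3. Chance gives about 1 in 20 for continuous values. Sets listed at 0 throughout could not be flagged, and a single value above 0 among zeros always is, so that rate does not apply to them. Itga5 in granulosa cells of dextran replicate 3 was 28.02 CPM, against 19.3 to 19.7 CPM in the other dextran libraries; without it the dextran change of Itga5 was 0.64 ± 0.32 on the log2 scale. The other 3 are values under 1 CPM in oocytes where the rest of the group was listed at 0: Itga2 at 0.677 CPM in control replicate 2, the oocyte library with the most granulosa cell RNA, and Itga1 and Itga3, each at 0.145 CPM, in blebbistatin replicate 4. The last 2 lie under the floor of 3 counts.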

How the results depend on the processing

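All counts of subunits past the threshold (10 between the cell types, 0 elsewhere) were the same under all alternatives run, except that DESeq2 called 1 (Itga5) for blebbistatin against control in granulosa cells. The filter, scaling and tool did move the calls over all genes: that comparison had 1 call by edgeR, 23 without the filter, 377 by DESeq2 and 1 by limma voom, 0 with the replicate block and 115 without blebbistatin replicate 2; dextran against control in granulosa cells had 0, 4, 42 and 0. Oocyte comparisons with control had 0 calls by edgeR and 14 (blebbistatin) and 4 (dextran) by DESeq2. Equal replicate numbers were not taken to pair the libraries, since not every pair's correlation of deviations exceeded 0.1 (-0.226 to 0.384 within cell types), although 8 of 12 granulosa and 6 of 12 oocyte libraries matched their own number best, a hint from the data and not the design. With the replicate block 10 of 10 subunits passed between the cell types, and 0 of 10 in granulosa cell and 0 of 7 in oocyte treatment comparisons. The subunit values that changed sign were not past the threshold in the edgeR fit, and the cause was not tested (log2 changes). With limma voom Itgb3 was -0.93 for blebbistatin against control in granulosa cells, Itga3 was -0.094 and Itga9 was -0.11 for blebbistatin against dextran in granulosa cells, Itgb1 was 0.018 for dextran against control in oocytes, Itga2 was 2.16 and Itgb3 was 1.08 for the blebbistatin interaction. With the replicate block Itgb3 was -0.36 for blebbistatin against control in granulosa cells, Itga9 was -0.084 for blebbistatin against dextran in granulosa cells, Itga6 was 0.0017 for blebbistatin against control in oocytes, Itgb1 was 0.0047 for dextran against control in oocytes, Itgb3 was 0.032 for the blebbistatin interaction. With unscaled totals Itga9 was -0.0021 for blebbistatin against dextran in granulosa cells, Itgb3 was 0.0082 for blebbistatin against dextran in oocytes, Itgb3 was 0.10 for the blebbistatin interaction. Without blebbistatin granulosa replicates 1 and 2, an alternative chosen after seeing the data, Itga9 was 0.039 for blebbistatin against control in granulosa cells, Itga1 was 0.016, Itga3 was -0.36 and Itga6 was -0.42 for blebbistatin against dextran in granulosa cells, Itga6 was 0.067 for the blebbistatin interaction. Without control oocyte replicates 1 and 2 and blebbistatin oocyte replicate 1, also chosen after seeing the data, Itgav was 1.64, Itgb1 was 0.36 and Itgb5 was 0.072 for blebbistatin against control in oocytes, Itgav was 2.17 and Itgb1 was 0.42 for dextran against control in oocytes, Itgb3 was 0.081 for blebbistatin against dextran in oocytes, Itga1 was 2.97, Itga2 was 1.67, Itgav was 1.53, Itgb1 was 0.18, Itgb3 was 0.51 and Itgb5 was 0.027 for the blebbistatin interaction, Itga1 was 4.52, Itgav was 1.71 and Itgb1 was 0.13 for the dextran interaction. With DESeq2 Itgb3 was 0.10 for the blebbistatin interaction. With RLE size factors Itgb3 was 0.095 for the blebbistatin interaction. With only the groups compared in the fit Itga6 was 0.0058 for blebbistatin against control in oocytes, Itgb3 was 0.20 for the blebbistatin interaction. Leaving out 1 library at a time, the values that changed sign ranged for Itga1 from -0.090 to 0.22, Itgav from -0.038 to 0.23 and Itgb3 from -0.45 to 0.64 for blebbistatin against control in granulosa cells, Itga3 from -0.24 to 0.34 and Itga9 from -0.43 to 0.24 for blebbistatin against dextran in granulosa cells, Itga5 from -1.34 to 0.35, Itga6 from -0.073 to 0.051, Itga9 from -0.037 to 0.077, Itgb1 from -0.31 to 0.13 and Itgb5 from -0.55 to 0.083 for blebbistatin against control in oocytes, Itga5 from -1.64 to 0.052, Itgav from -2.36 to 0.023, Itgb1 from -0.24 to 0.20 and Itgb3 from -0.073 to 0.53 for dextran against control in oocytes, Itga5 from -0.95 to 1.58, Itgav from -0.63 to 0.34, Itgb1 from -0.18 to 0.041 and Itgb3 from -0.19 to 0.27 for blebbistatin against dextran in oocytes, Itga2 from -3.44 to 1.79, Itgb1 from -0.65 to 0.12, Itgb3 from -0.55 to 0.52 and Itgb5 from -0.74 to 0.021 for the blebbistatin interaction. Depth limits Itga1, Itga2, Itga3 and Itga5 in oocytes, at 1.88 CPM or less in every library; Itgav had 1 count in control oocyte replicate 4.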
